A study of Mus musculus with 12 samples.

Results

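The 10 genes followed here belong to the cyclic AMP (cAMP) and protein kinase A (PKA) pathway and were measured in mouse CD8+ T cells by RNA sequencing: the G protein subunit Gnas, the adenylyl cyclase Adcy7, the PKA catalytic subunits Prkaca and Prkacb, the PKA regulatory subunits Prkar1a and Prkar2a, and the phosphodiesterases Pde3b, Pde4b, Pde4d and Pde7a. They were chosen by name, with earlier results of these data known, as 10 of the 54532 genes listed in every library. Counts over the 10 below therefore only describe this list. All 10 were among the 11550 genes whose mean level over the 12 libraries reached 1 FPKM (fragments per kilobase, scaled to gene length and library size), the minimum for testing. Levels below are FPKM and differences are log2 fold changes of log2(FPKM + 1). A gene is called where limma's p, adjusted by Benjamini-Hochberg over the 11550 genes, was under 0.05.

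In this pathway a receptor coupled to the stimulatory G protein Gs switches on adenylyl cyclase, which makes cAMP, and cAMP binds the regulatory subunits of PKA and frees its catalytic subunits. The freed kinase phosphorylates, among other proteins, the transcription factor CREB, which binds cAMP response elements in DNA, while phosphodiesterases end the signal by hydrolysing cAMP. In T cells cAMP is best known as a brake on activation through the antigen receptor, and Pde3b, Pde4 enzymes and Pde7a are the phosphodiesterases most often described there.

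The cells were primary, wild-type T cells given siRNA to Creb1 (siCreb1) or with a control siRNA that targets no gene (siNTC), each with the vehicle DMSO or with trans-vaccenic acid (TVA), a trans fatty acid of ruminant milk and meat, for 24 h. Per the study's methods the CD8+ T cells came from mouse spleen and lymph nodes and were activated through CD3 and CD28, so all 4 groups share that activation. Each group (siNTC, siNTC plus TVA, siCreb1, siCreb1 plus TVA) holds 3 libraries. Nothing in the labels says whether the 3 came from separate mice, so p-values measure the spread between these libraries, which may be technical, and a transient siRNA lowers Creb1 without deleting it. The comparisons ask what TVA did with and without Creb1, what knockdown of Creb1 did with and without TVA, and whether the TVA effect differed between the siRNAs (the interaction).

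Between 16660234 and 24602484 reads per library were assigned to genes, of which a member took between 798 and 15682. The 6 siNTC libraries, with or without TVA, held up to 20758033 reads and the 6 siCreb1 libraries at least 20760297. Depth thus went with the siRNA, and its part in the differences was not tested. The library size implied by the FPKM was 0.987 to 0.999 of the summed reads in siNTC, and 0.999 to 1.004 in siNTC plus TVA. It was 1.005 to 1.007 in siCreb1 and 1.013 to 1.017 in siCreb1 plus TVA. A larger size gives lower FPKM, and the part of this scaling in the differences was not tested. Creb1 lay at 10.3 to 12.4 FPKM in the 6 siNTC libraries and at 1.17 to 1.81 FPKM in the 6 siCreb1 libraries (exact two-sided permutation test, p = 0.00216, n = 6 against 6), which left 13.4% of the siNTC mean without TVA and 13.1% with it. All 8 CD8 T cell markers were expressed, with Cd8a at 416 to 450.4 FPKM, and their summed level was 2356 to 2367 FPKM in the 3 siNTC libraries without TVA and 2216 to 2234 FPKM in the 3 siCreb1 libraries without TVA. With TVA it was 2334 to 2350.5 FPKM in siNTC plus TVA and 2232 to 2249 FPKM in siCreb1 plus TVA. Of 4 B cell markers 2 averaged 1 FPKM or more, Cd79a at 0.945 to 2.61 FPKM and Cd79b at 7.77 to 12.3 FPKM, and Pax5 stayed under 0.0942 FPKM. Of 6 myeloid markers only Lyz2 did, at 4.61 to 8.20 FPKM, while Csf1r stayed under 0.274 FPKM, and none of 4 erythroid markers did. Of 4 CD4 T cell markers 3 averaged 1 FPKM or more, with Cd4 at 0.921 to 1.75 FPKM and Foxp3 at 1.87 to 2.99 FPKM, and the 4 summed to between 5.37 and 7.22 FPKM in the 12 libraries. All 4 NK cell markers averaged 1 FPKM or more. Eomes, which activated CD8 T cells also express, was at 27.1 to 30.6 FPKM, Ncr1 at 0.969 to 1.87, Klrb1c at 2.15 to 3.92 and Klre1 at 1.98 to 3.49 FPKM.

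Per unit of gene length, the regulatory subunit Prkar1a was the most abundant member, at a mean of 125.7 FPKM and rank 332 among the 11550 tested genes. Adcy7 followed at 88.9 FPKM, then Pde3b at 54.6, Prkacb at 47.1, Pde7a at 20.2, Prkaca at 20.1, Prkar2a at 7.85, Gnas at 5.70, Pde4b at 4.85 and Pde4d at 4.54 FPKM. Pde7a and Prkaca exchanged places from library to library, whereas the libraries of Prkar1a, between 119 and 134 FPKM, all lay above every library of Adcy7, between 81.2 and 93.1 FPKM. The group means of a member differed little: the highest over the lowest was 1.56 for Gnas, 1.21 for Pde3b and between 1.09 and 1.19 for the other 8.

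**Figure D1:**
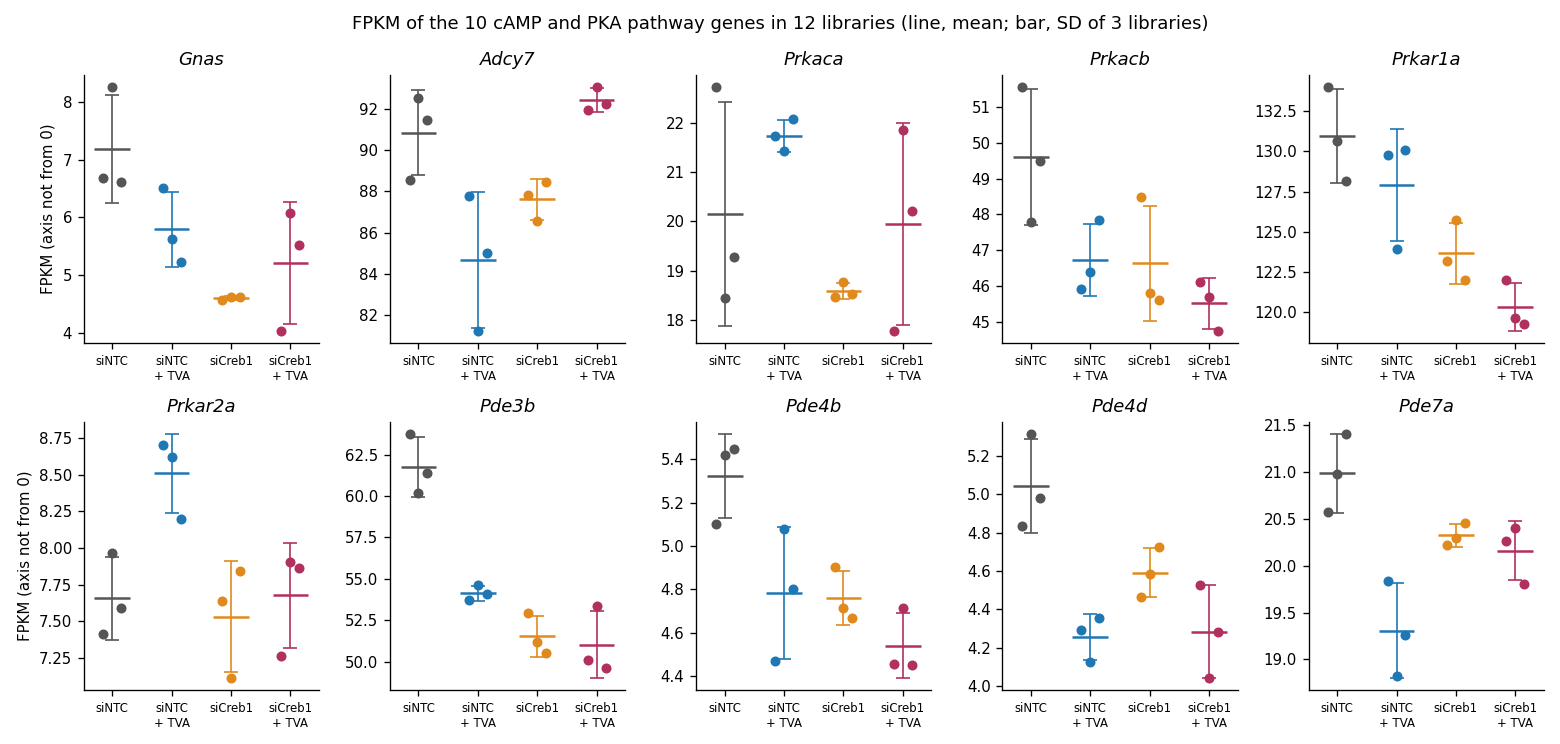
FPKM of the 10 members in each of the 12 libraries, 1 panel a gene, with the mean and the SD of 3 libraries for siNTC, siNTC plus TVA, siCreb1 and siCreb1 plus TVA; the vertical axes do not start at 0. The 3 siNTC libraries of Pde3b, at 60.2 to 63.8 FPKM, lie above the 9 others, and in the panel of Adcy7 the siNTC plus TVA libraries lie below siNTC and the siCreb1 plus TVA libraries above siCreb1.

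With TVA in siNTC cells, 3 of the 10 members were called and all 3 were phosphodiesterases that fell: Pde3b, Pde4d and Pde7a. Of all tested genes 7.38% were called in this comparison, and 2.88% were called lower. The median difference of the members was -0.11 on the log2 scale against -0.01 for all tested genes, 8 of 10 had a negative sign, and 7 reached an unadjusted p under 0.05, as did 20.9% of all tested genes. The libraries of the 2 groups did not overlap for 7 members, 6 lower with TVA (Gnas, Adcy7, Pde3b, Pde4b, Pde4d and Pde7a) and 1 higher (Prkar2a), where 12.2% of all tested genes lay lower and 11.7% higher without overlap. The 4 NK cell markers summed to 34.2 to 36.4 FPKM in siNTC and 37.3 to 37.7 FPKM in siNTC plus TVA. Eomes, which activated CD8 T cells also express, made up most of these sums. The part of the 4 markers in these differences was not tested.

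With TVA in siCreb1 cells, limma called none of the 10 members, and 0.537% of all tested genes were called, while 1 member reached an unadjusted p under 0.05, as did 9.58% of all tested genes. limma-voom on the reads recovered from the FPKM called none of them either. The median difference was -0.01 on the log2 scale and 4 members had a positive sign. Only Adcy7 had non-overlapping libraries, higher with TVA, as did 8.09% of all tested genes. The NK cell marker sum was 35.1 to 36.8 FPKM in siCreb1 and 37.6 to 38.8 FPKM in siCreb1 plus TVA, again without overlap. Here too Eomes made up most of the sums, and their part in the differences was not tested.

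Knockdown of Creb1 without TVA lowered 2 of the 10 members, Gnas and Pde3b, and 13.7% of all tested genes were called, 7.21% lower. All 10 members had a negative sign, with a median of -0.10 on the log2 scale against -0.0011 for all tested genes, although Prkar2a and Pde7a turned positive when FPKM were rescaled to TPM, in which every library has the same total, and where the medians were -0.05 and 0.04. For 7 members the libraries did not overlap between the groups, all 7 lower in siCreb1 (Gnas, Adcy7, Prkar1a, Pde3b, Pde4b, Pde4d and Pde7a), against 16% of all tested genes. The summed CD8 T cell markers moved the same way, from a mean of 2360 FPKM in siNTC to 2223 FPKM in siCreb1, and their part in these differences was not tested.

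Knockdown of Creb1 with TVA raised 1 member, Adcy7, and 10.1% of all tested genes were called, 4.64% higher. The other 9 were not called, 7 of the 10 signs were negative and the median was -0.07 on the log2 scale, against -0.01 for all tested genes. Adcy7 alone lay higher without overlap, as did 14.3% of all tested genes, and Prkar1a, Prkar2a and Pde3b lay lower, as did 17.6%. The mean sum of the CD8 T cell markers was 2339 FPKM in siNTC plus TVA and 2239 FPKM in siCreb1 plus TVA. The myeloid markers summed to 7.73 to 8.998 FPKM in siCreb1 plus TVA, above siNTC plus TVA (5.03 to 6.39) and siCreb1 (4.99 to 6.63). The B cell markers summed to 11.8 to 12.7 FPKM there, above siNTC plus TVA (9.23 to 11.5) and siCreb1 (9.94 to 11.2). The part of these marker sums in the members' differences was not tested. Comparisons of TVA in siNTC cells and of siCreb1 without TVA share the siNTC libraries, and those of siCreb1 with TVA share libraries with both TVA comparisons, so their values are not independent.

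**Figure D2:**
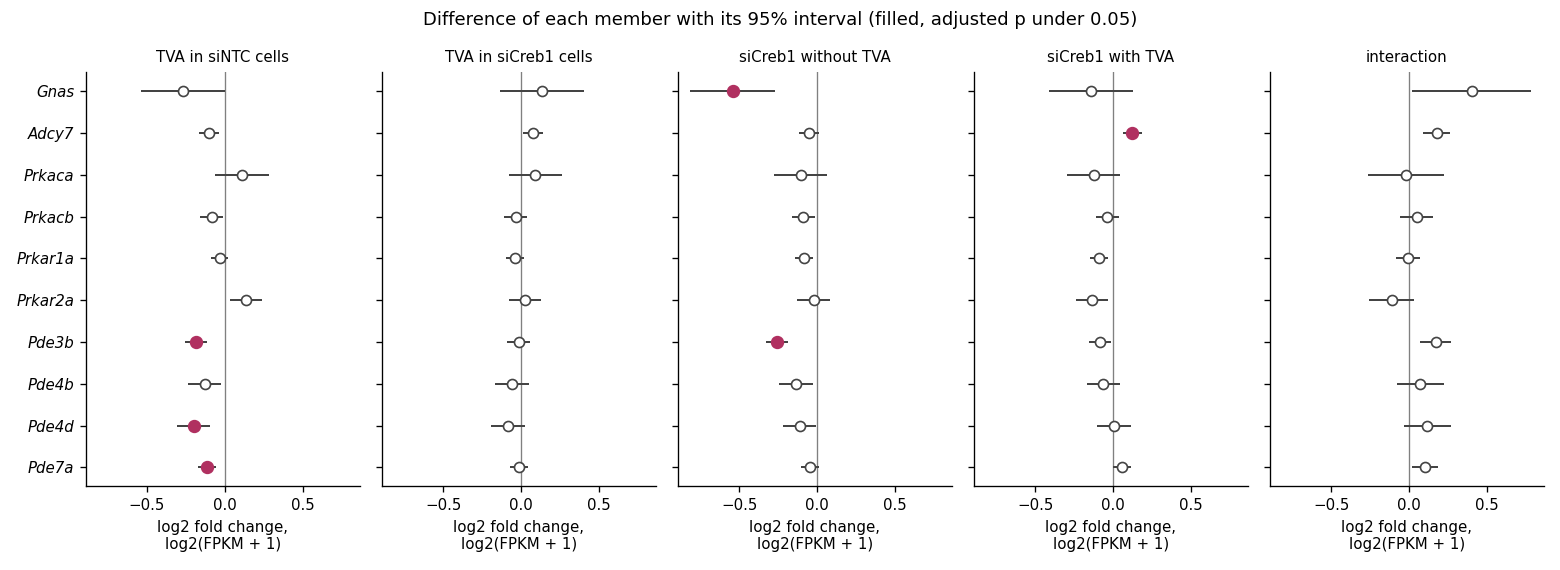
Log2 fold change of each member on the log2(FPKM + 1) scale with its 95% interval in the 5 comparisons; filled points were called at an adjusted p under 0.05. Filled points are Pde3b, Pde4d and Pde7a for TVA in siNTC cells, Gnas and Pde3b for siCreb1 without TVA, and Adcy7 for siCreb1 with TVA.

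Gnas encodes the alpha subunit of Gs, which carries the signal from receptors to adenylyl cyclase. Gnas (ENSMUSG00000027523) spans bases 174284320 to 174346744 of chromosome 2 (GRCm38, plus strand). Its level was 6.68, 8.26 and 6.62 FPKM in siNTC and 6.51, 5.63 and 5.23 FPKM in siNTC plus TVA. Levels of Gnas were 4.56, 4.62 and 4.61 FPKM in siCreb1 and 4.02, 6.08 and 5.52 FPKM in siCreb1 plus TVA. The 3 siCreb1 libraries lay close together and below all siNTC and siNTC plus TVA libraries, whereas the siCreb1 plus TVA libraries spread over both sides of them.

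Gnas thus fell from 7.19 ± 0.93 to 4.60 ± 0.032 FPKM (SD, n = 3) with siCreb1 in the absence of TVA, a log2 fold change of -0.54 (SE 0.12, limma adjusted p = 0.0161). Without siNTC replicate 2, the highest library, the value was -0.45 and its adjusted p 0.0565. The other comparisons of Gnas were not called: -0.27 for TVA in siNTC cells (95% interval -0.54 to 0.0034), 0.13 for TVA in siCreb1 cells (-0.14 to 0.41), -0.14 for siCreb1 with TVA (-0.41 to 0.13) and an interaction of 0.40 (0.018 to 0.79, limma adjusted p = 0.32). The locus makes several transcripts and overlaps Nespas and Gm20721 on the opposite strand, and whether the counting used strand is not given in the sources used here.

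Adcy7 encodes an adenylyl cyclase of blood cells that Gs stimulates. Adcy7 (ENSMUSG00000031659) spans bases 88272403 to 88329962 of chromosome 8 (GRCm38, plus strand). Its level was 88.5, 92.6 and 91.5 FPKM in siNTC and 87.8, 81.2 and 85.0 FPKM in siNTC plus TVA. Levels of Adcy7 were 87.8, 86.5 and 88.5 FPKM in siCreb1 and 92.0, 93.1 and 92.3 FPKM in siCreb1 plus TVA. With TVA the libraries lay below siNTC in control cells and above siCreb1 in knockdown cells, so the order of the group means was siNTC plus TVA, siCreb1, siNTC and siCreb1 plus TVA, where the first pair and the last pair overlapped.

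Adcy7 was higher with siCreb1 in the presence of TVA, at 92.4 ± 0.57 against 84.7 ± 3.3 FPKM (SD, n = 3), a log2 fold change of 0.13 (SE 0.029, limma adjusted p = 0.0211). This call was lost without siNTC plus TVA replicate 2 (0.10, adjusted p = 0.0628) or 3 (0.13, adjusted p = 0.0516) and without any 1 of the 3 siCreb1 plus TVA libraries (0.12 to 0.13, adjusted p = 0.0573 to 0.0716). TVA in siNTC cells gave -0.10 (SE 0.028, limma adjusted p = 0.0599), which passed the threshold at a minimum of 5 FPKM (adjusted p = 0.0486), after quantile normalization (0.0468), with limma-voom (0.0398) and without siNTC replicate 1 (0.0488) or siNTC plus TVA replicate 1 (0.0281). TVA in siCreb1 cells gave 0.077 (95% interval 0.013 to 0.14, adjusted p = 0.418). The interaction was 0.18 (SE 0.040, unadjusted p = 0.00117, adjusted p = 0.0504). Of all tested genes 2.24% were called for the interaction.

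The 6 myeloid markers summed to 6.18 to 7.29 FPKM in siNTC, 5.03 to 6.39 in siNTC plus TVA, 4.99 to 6.63 in siCreb1 and 7.73 to 8.998 FPKM in siCreb1 plus TVA, and the order of their means was that of Adcy7. Lyz2 made up most of these sums, and Adgre1 and C1qa stayed under 0.124 FPKM. The 4 B cell markers summed to 10.8 to 13.9, 9.23 to 11.5, 9.94 to 11.2 and 11.8 to 12.7 FPKM in the same groups, and Cd79b made up most of these sums. The part of the myeloid and B cell markers in the differences of Adcy7 was not tested.

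Of the 10 adenylyl cyclase genes listed, 3 reached the minimum level, and Adcy7 made up 86.1 to 87.2% of the summed cyclase FPKM in every library. Adcy3 and Adcy6, the other 2, had group means between 5.48 and 7.24 FPKM and were not called in any of the 5 comparisons, although limma-voom on recovered reads called Adcy6 for siCreb1 with TVA. The summed level was 104.4 ± 2.6 FPKM in siNTC, 97.8 ± 3.8 FPKM in siNTC plus TVA, 101.2 ± 1.2 in siCreb1 and 106.4 ± 0.54 in siCreb1 plus TVA (SD, n = 3).

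Among the PKA catalytic subunits, which carry the kinase activity, limma called no difference, nor did limma-voom on recovered reads, and 2 of the 10 differences of these genes had an unadjusted p under 0.05. Prkaca (ENSMUSG00000005469) spans bases 83972993 to 83996443 of chromosome 8 (GRCm38, plus strand). Prkaca was at 22.7, 18.4 and 19.3 FPKM in siNTC and 21.7, 21.4 and 22.1 FPKM in siNTC plus TVA. Levels of Prkaca were 18.5, 18.8 and 18.5 FPKM in siCreb1 and 17.8, 21.9 and 20.2 FPKM in siCreb1 plus TVA. Its libraries overlapped between every pair of groups compared, and the SD reached 2.27 FPKM in siNTC. The intervals for Prkaca were -0.06 to 0.28 for TVA in siNTC cells and -0.28 to 0.07 for siCreb1 without TVA, on the log2 scale.

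Prkacb (ENSMUSG00000005034) spans bases 146729574 to 146812990 of chromosome 3 (GRCm38, minus strand). Prkacb, the more abundant catalytic subunit, was at 51.6, 47.8 and 49.5 FPKM in siNTC and 45.9, 46.4 and 47.9 FPKM in siNTC plus TVA. Levels of Prkacb were 48.5, 45.8 and 45.6 FPKM in siCreb1 and 46.1, 45.7 and 44.7 FPKM in siCreb1 plus TVA. The groups overlapped in each comparison. Prkacb gave -0.08 for TVA in siNTC cells (SE 0.034, limma adjusted p = 0.179) and -0.09 for siCreb1 without TVA (SE 0.034, adjusted p = 0.116). Prkacb overlaps Gm19104 on the opposite strand, and without strand their reads cannot be told apart. Prkacb made up 67.6 to 72.4% of the summed catalytic FPKM over the 12 libraries.

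The regulatory subunits hold the kinase inactive until cAMP binds. Prkar1a (ENSMUSG00000020612) spans bases 109649405 to 109669656 of chromosome 11 (GRCm38, plus strand). Prkar1a, the type I alpha subunit, was at 134, 131 and 128 FPKM in siNTC and 129.8, 124 and 130.1 FPKM in siNTC plus TVA. Levels of Prkar1a were 123, 126 and 122 FPKM in siCreb1 and 122, 119.6 and 119 FPKM in siCreb1 plus TVA. Both siCreb1 groups lay below their siNTC counterparts without overlap.

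The differences of Prkar1a with siCreb1 missed the threshold on both sides, at -0.08 without TVA (SE 0.026, limma adjusted p = 0.0594) and -0.09 with TVA (SE 0.026, adjusted p = 0.0554). The first passed it without siNTC plus TVA replicate 2 (adjusted p = 0.043), and the second without that library (-0.11, adjusted p = 0.0373), without siNTC replicate 1 (adjusted p = 0.0462) or when the minimum was 5 FPKM (adjusted p = 0.0447). The interaction for Prkar1a was -0.0059 (95% interval -0.09 to 0.07).

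Prkar2a (ENSMUSG00000032601) spans bases 108689314 to 108750436 of chromosome 9 (GRCm38, plus strand). Prkar2a, the type II alpha subunit, was at 7.41, 7.97 and 7.59 FPKM in siNTC and 8.70, 8.62 and 8.20 FPKM in siNTC plus TVA. Levels of Prkar2a were 7.64, 7.11 and 7.84 FPKM in siCreb1 and 7.27, 7.91 and 7.86 FPKM in siCreb1 plus TVA. It was highest in the 3 siNTC plus TVA libraries, above those of every other group. The difference with TVA in siNTC cells was 0.14 (SE 0.047, limma adjusted p = 0.122) and that of siCreb1 with TVA -0.13 (SE 0.047, adjusted p = 0.102), and neither was called. Prkar2a overlaps Gm24259 on the opposite strand.

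Over the whole enzyme, the ratio of summed catalytic to summed regulatory FPKM was 0.485 ± 0.021 in siNTC, 0.483 ± 0.012 in siNTC plus TVA, 0.485 ± 0.012 in siCreb1 and 0.496 ± 0.017 in siCreb1 plus TVA (SD, n = 3), and the groups overlapped. Prkar1a made up 90.2 to 92.6% of the regulatory FPKM and Prkar2a 5.02 to 6.28%. Prkar2b, the type II beta subunit and no member, made up 2.18 to 4.20%, and it was the PKA gene with a called difference: it fell from 5.30 to 3.26 FPKM with siCreb1 (-0.56, SE 0.093, limma adjusted p = 0.00363) and from 5.27 to 3.95 FPKM with siCreb1 in the presence of TVA (-0.34, SE 0.093, adjusted p = 0.044). Of the inhibitor peptide genes, which block free catalytic subunits, Pkia and Pkib stayed under 0.0542 FPKM, and none of 3 reached the minimum level. Pkig was at 0.616 to 0.879 FPKM in siNTC and 0.768 to 1.46 FPKM in siNTC plus TVA. It was at 1.03 to 1.13 FPKM in siCreb1, above siNTC without overlap, and at 0.888 to 1.05 FPKM in siCreb1 plus TVA. Its differences were not tested.

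**Figure D3:**
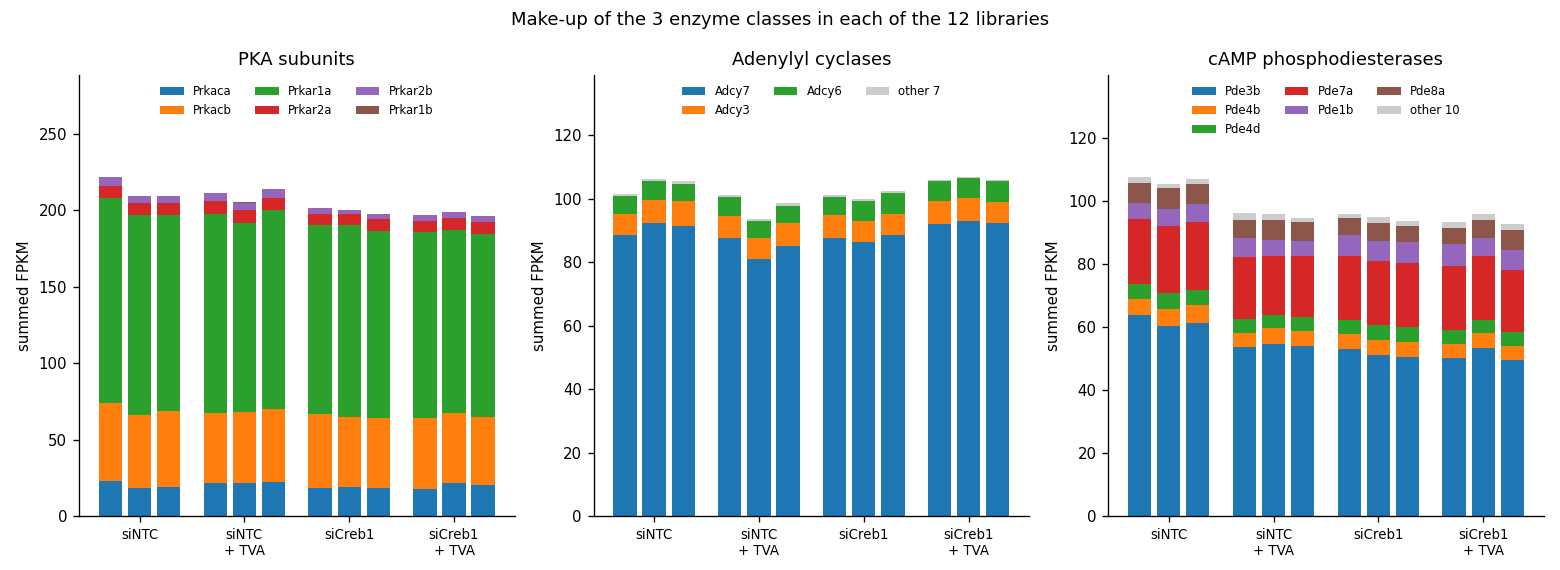
Summed FPKM of the PKA subunits, adenylyl cyclases and cAMP phosphodiesterases in each of the 12 libraries, stacked by gene, with the members and the 2 most abundant other genes of each class named. Prkar1a, Adcy7 and Pde3b are the largest parts of their classes, and the phosphodiesterase stacks of siNTC are taller than those of the other 3 groups.

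Pde3b, a phosphodiesterase that cyclic GMP inhibits, had the largest moderated F of the members over the 4 groups. Pde3b (ENSMUSG00000030671) spans bases 114415281 to 114539251 of chromosome 7 (GRCm38, plus strand). It was at 63.8, 60.2 and 61.4 FPKM in siNTC and 53.7, 54.6 and 54.1 FPKM in siNTC plus TVA. Levels of Pde3b were 52.9, 51.2 and 50.5 FPKM in siCreb1 and 50.1, 53.3 and 49.6 FPKM in siCreb1 plus TVA. The siNTC libraries stood above the 9 others, and siNTC plus TVA lay above both siCreb1 groups, which overlapped with each other.

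TVA in siNTC cells lowered Pde3b from 61.8 ± 1.8 to 54.1 ± 0.46 FPKM (SD, n = 3), and the mean fell by 12.4%, a log2 fold change of -0.19 (SE 0.032, limma adjusted p = 0.00549). Knockdown of Creb1 without TVA lowered it to 51.5 ± 1.2 FPKM, and the mean fell by 16.6%, a log2 fold change of -0.26 (SE 0.032, adjusted p = 0.000886). Both calls held under each of 21 alternatives. In siCreb1 cells TVA gave -0.01 (95% interval -0.09 to 0.06), siCreb1 with TVA gave -0.08 (adjusted p = 0.126), and the interaction was 0.17 (SE 0.046, limma adjusted p = 0.0921), called in 1 of 20 alternatives, limma-voom on recovered reads (adjusted p = 0.0081).

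Pde4b and Pde4d belong to the cAMP-specific Pde4 family. Pde4b (ENSMUSG00000028525) spans bases 102087543 to 102607259 of chromosome 4 (GRCm38, plus strand). Pde4b was at 5.10, 5.42 and 5.45 FPKM in siNTC and 4.47, 5.08 and 4.80 FPKM in siNTC plus TVA. Levels of Pde4b were 4.90, 4.71 and 4.66 FPKM in siCreb1 and 4.46, 4.71 and 4.45 FPKM in siCreb1 plus TVA. All siNTC libraries lay above those of the other groups, but the nearest pair differed by little. No difference of Pde4b was called: -0.13 for TVA in siNTC cells (SE 0.049, limma adjusted p = 0.152) and -0.13 for siCreb1 without TVA (SE 0.049, adjusted p = 0.0954).

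Pde4d (ENSMUSG00000021699) spans bases 108449948 to 109953461 of chromosome 13 (GRCm38, plus strand). Pde4d was at 4.84, 5.31 and 4.98 FPKM in siNTC and 4.29, 4.12 and 4.35 FPKM in siNTC plus TVA. Levels of Pde4d were 4.47, 4.58 and 4.72 FPKM in siCreb1 and 4.53, 4.04 and 4.28 FPKM in siCreb1 plus TVA. The siNTC plus TVA libraries lay below those of siNTC and siCreb1 and within the range of siCreb1 plus TVA. With TVA in siNTC cells the mean FPKM of Pde4d fell by 15.6%, a log2 fold change of -0.20 (SE 0.049, limma adjusted p = 0.0325). Pde4d overlaps Gm27572 and Gm28016 on the opposite strand and Rps3a3 on its own, whose reads may not be told apart from its own.

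This call of Pde4d was lost under 9 of 20 alternatives (-0.24 to -0.17 over all 20), among them without siNTC replicate 2 (-0.17, adjusted p = 0.11) or 3 (adjusted p = 0.0697) and without siNTC plus TVA replicate 1 (adjusted p = 0.0713), 2 (adjusted p = 0.108) or 3 (adjusted p = 0.0629). TVA in siCreb1 cells gave -0.08 (95% interval -0.19 to 0.026), siCreb1 without TVA -0.11 (-0.22 to -0.0035, adjusted p = 0.164), and the interaction 0.12 (-0.03 to 0.27).

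Pde7a (ENSMUSG00000069094) spans bases 19223108 to 19311322 of chromosome 3 (GRCm38, minus strand). Pde7a, another cAMP-specific phosphodiesterase, was at 20.6, 21.0 and 21.4 FPKM in siNTC and 19.8, 18.8 and 19.3 FPKM in siNTC plus TVA. Levels of Pde7a were 20.2, 20.3 and 20.5 FPKM in siCreb1 and 20.3, 20.4 and 19.8 FPKM in siCreb1 plus TVA. The siNTC plus TVA libraries lay below siNTC and siCreb1 and overlapped with siCreb1 plus TVA. With TVA in siNTC cells the mean FPKM of Pde7a fell by 7.99%, a log2 fold change of -0.11 (SE 0.027, limma adjusted p = 0.0287).

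The call of Pde7a was lost under 8 of 21 alternatives, among them without siNTC replicate 2 (adjusted p = 0.0723) or 3 (adjusted p = 0.0885) and without siNTC plus TVA replicate 2 (adjusted p = 0.105) or 3 (adjusted p = 0.0806). TVA in siCreb1 cells gave -0.01 (95% interval -0.07 to 0.048) and the interaction was 0.10 (0.019 to 0.19, limma adjusted p = 0.231). Pde7a overlaps the antisense gene Gm16093, whose reads cannot be told apart without strand.

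Together the 16 cAMP phosphodiesterase genes listed, of which 6 reached the minimum level, summed to 105.4 to 107.7 FPKM in siNTC, 94.7 to 96.0 in siNTC plus TVA, 93.8 to 95.9 in siCreb1 and 92.8 to 95.7 in siCreb1 plus TVA. The siNTC libraries stood above those of the other 3 groups, which overlapped. Pde3b made up 57.1 to 59.2% of the sum in siNTC and 53.9 to 55.2% in siCreb1, and the share of Pde7a was 19.1 to 20.04% and 21.1 to 21.8%. Pde1b and Pde8a, the other 2 that were tested, were not called in any comparison, although limma-voom called Pde1b for siCreb1 without and with TVA.

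Since Creb1 was the gene lowered, the promoters of the members were searched for the cAMP response element, the palindrome that its core TGACG forms when TCA follows, and for the core alone on either strand (CGTCA on the other). RefSeq promoters (GRCm38.p6) of 300 bases, 250 before and 50 after a start site, were at hand for 8 members with 24 start sites, and not for Pde3b and Pde7a. The full element was in 1 of the 8 members, Prkar1a, and in 2.03% of all 27025 genes and 1.79% of their 32851 promoters. A core was in 7 of the 8 members and in 23.0% of all genes. By start site it was at 11 of 24 and in 20.8% of all promoters. The 8 members have more start sites per gene than all genes, and neighbouring start sites of Gnas and of Prkar1a share matches. The windows of 30 bases below hold the element of Prkar1a and a core of the 2 members with a called difference and a match, Gnas and Adcy7, and of both catalytic subunits, read 5′ to 3′ on the gene's strand with the match in capitals.
Prkar1a, chr11:109650889-109650918, plus strand, match 49 bases before a start site: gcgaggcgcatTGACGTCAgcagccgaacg
Gnas, chr2:174327699-174327728, plus strand, match 38 bases before a start site: aagaggttggggCGTCAtcaggctggttag
Gnas, chr2:174329778-174329807, plus strand, match 216 bases before a start site: cgtgtgaggggtCGTCAccaccgcggggcc
Adcy7, chr8:88282952-88282981, plus strand, match 28 bases before a start site: tgatcatagagcCGTCAggggggtggggct
Prkaca, chr8:83972846-83972875, plus strand, match 120 bases before a start site: gtctgcaactcgCGTCActcatccaggagc
Prkacb, chr3:146813031-146813060, minus strand, match 102 bases before a start site: ggggcttgaccgCGTCActtccggcgcgcc

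In the GENCODE vM21 annotation the elements of Prkar1a, Adcy7, Prkaca and Prkacb lie in no exon of their gene, the first of Gnas lies in an exon and the second in an untranslated region of a transcript of the gene. Prkar1a, with the full element, lay lower with siCreb1 without overlap but was not called (limma adjusted p = 0.0594 without TVA and 0.0554 with TVA). With siCreb1 Gnas, with cores, was called lower without TVA, and Adcy7, with a core, was called higher with TVA. Prkaca, Prkacb, Prkar2a and Pde4b held a core too and were not called with siCreb1. The single listed start site of Pde4d held none. A match describes these letters in the windows and does not show that CREB binds there.

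Of the 68 other genes on the cAMP pathway lists, 27 reached the minimum level. With TVA in siNTC cells 2 of the 27 were called, both lower, where 7.38% of all tested genes were called and 2.88% lower. With TVA in siCreb1 cells limma called none, limma-voom none and 3 had an unadjusted p under 0.05, where limma called 0.537% of all tested genes. Without TVA, knockdown of Creb1 lowered 4 and raised 1, and with TVA it lowered 2 and raised 2, with medians of -0.01 and 0.01 on the log2 scale, where 13.7% and 10.1% of all tested genes were called. For the interaction limma called none of the 27, 3 had an unadjusted p under 0.05 and limma-voom called 1, Vipr1, and limma called 2.24% of all tested genes. limma-voom also called more of them with siCreb1, 10 without TVA and 10 with it.

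Among the genes upstream of the cyclase, Vipr1, a Gs-coupled receptor for vasoactive intestinal peptide, was measured at 16.9, 16.3 and 16.0 FPKM in siNTC and 13.7, 14.3 and 14.3 FPKM in siNTC plus TVA. Levels of Vipr1 were 13.2, 13.2 and 13.3 FPKM in siCreb1 and 13.8, 14.9 and 12.8 FPKM in siCreb1 plus TVA. As with Pde3b, the siNTC libraries lay above all the others. Vipr1 was lower with TVA in siNTC cells (-0.20, SE 0.046, limma adjusted p = 0.0255) and lower with siCreb1 without TVA (-0.29, SE 0.046, adjusted p = 0.00306). Of the 15 Gs-coupled receptor genes listed 9 were tested, and limma called no other. However, limma-voom on recovered reads also called Adora2a and Calcrl for siCreb1 without TVA, and Gpr174 and Ptger2 for siCreb1 with TVA.

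Of 6 G protein alpha subunits listed 5 were tested, and with siCreb1 without TVA 3 fell, Gnas, Gnai2 and Gnaz, where 7.21% of all tested genes were called lower. Gnai2, an inhibitory subunit, fell from 129.8 to 121 FPKM without TVA (-0.10, SE 0.024, limma adjusted p = 0.0252) and from 131 to 121 FPKM with TVA (-0.11, adjusted p = 0.0163). Gnaz, another inhibitory subunit, fell from 1.31 to 0.687 FPKM without TVA (-0.45, SE 0.13, adjusted p = 0.0368), on 37 to 119 reads per library.

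Downstream, Akap8, an anchoring protein of the nucleus, rose with siCreb1 from 57.0 to 60.9 FPKM without TVA (0.09, SE 0.024, limma adjusted p = 0.0268) and from 55.9 to 63.5 FPKM with TVA (0.18, adjusted p = 0.00209). Its relative Akap8l fell with TVA in siNTC cells from 48.5 to 41.6 FPKM (-0.22, SE 0.054, adjusted p = 0.0371). Rapgef4, an exchange factor for Rap that cAMP activates without PKA, was higher with siCreb1 in the presence of TVA, at 4.90 against 3.94 FPKM (0.26, SE 0.066, adjusted p = 0.0334).

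None of the 6 free fatty acid receptor genes listed reached the minimum level. Ffar2, the receptor GPR43, had 0, 0 and 7 reads in siNTC, 0, 14 and 4 in siNTC plus TVA, 3, 3 and 5 in siCreb1, and 1, 1 and 6 in siCreb1 plus TVA, at most 0.302 FPKM. Ffar1, Ffar4 and Gpr84 had at most 4 reads in any library, and Ffar3 and Gpr119 had 0 reads in all 12, which allows up to 3 reads per library for counting error only. Differences in these receptors were not detectable at this depth.

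**Figure D4:**
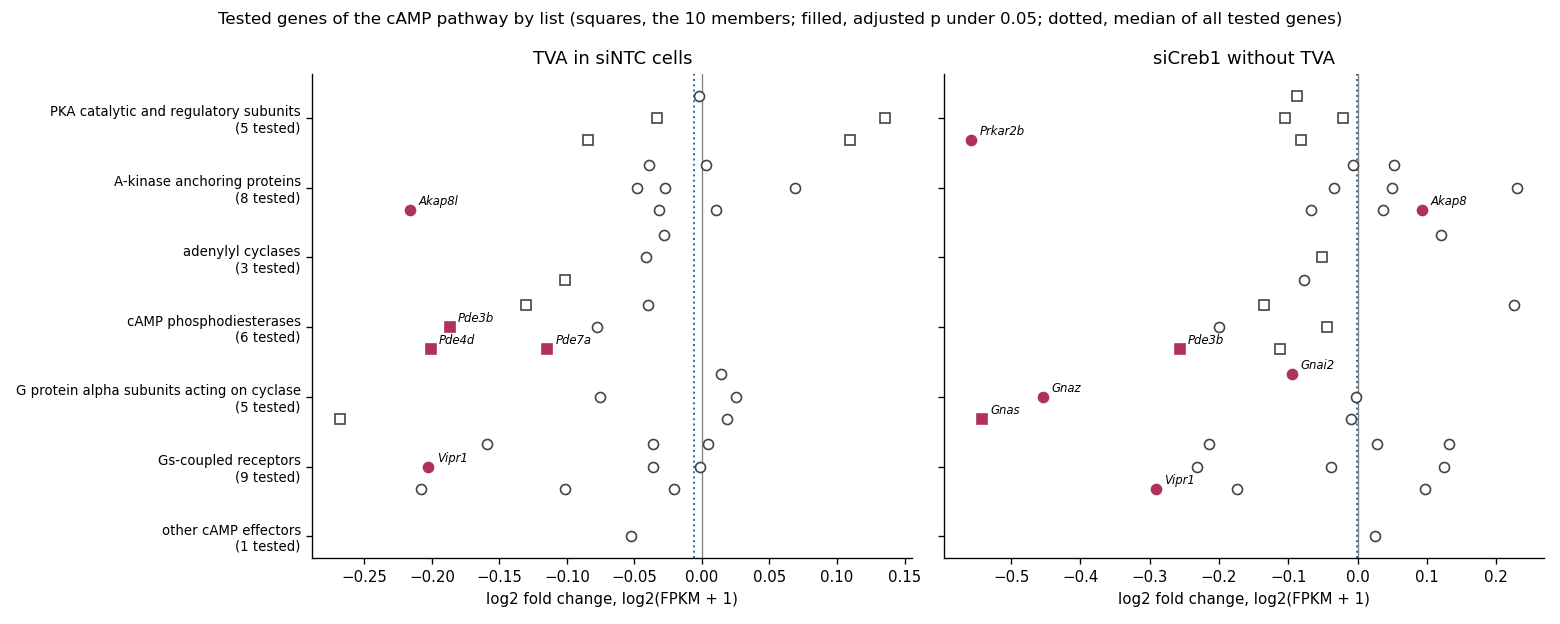
Log2 fold change of every tested gene on the cAMP pathway lists for TVA in siNTC cells and for siCreb1 without TVA; squares are the 10 members, filled symbols were called at an adjusted p under 0.05, and the dotted line is the median of all tested genes. Called genes lie on the lower side, except Akap8 with siCreb1.

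For the 3 members with the largest moderated F over the 4 groups, the genes outside the pathway lists with the most similar pattern were found by the root mean square (RMS) difference of log2(FPKM + 1), each gene centred on its mean, over the 12 libraries. The closest genes lie under the median gene by the way they were picked. For Pde3b (moderated F 29.8), Thada, Cox7a2l and Btg1 differed by an RMS of 0.039, 0.039 and 0.040, where the median gene differed by 0.14. A gene that does not vary would differ from Pde3b by 0.113, the RMS of Pde3b about its own mean. Thada averaged 14.5, 12.03, 11.9 and 12.1 FPKM in siNTC, siNTC plus TVA, siCreb1 and siCreb1 plus TVA, and Btg1 145, 126, 122 and 125 FPKM. For Prkar1a (moderated F 8.70) the closest genes were Pdha1, Pdcd6ip and Anxa7, at 0.021 to 0.024, and for Adcy7 (moderated F 7.73) Man2b1, Arhgef1 and Gclc, at 0.030 to 0.032, with median genes at 0.11 in both cases. The RMS about the own mean was 0.052 for Prkar1a and 0.056 for Adcy7, so these matches are looser than those of Pde3b relative to the member's own variation.

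**Figure D5:**
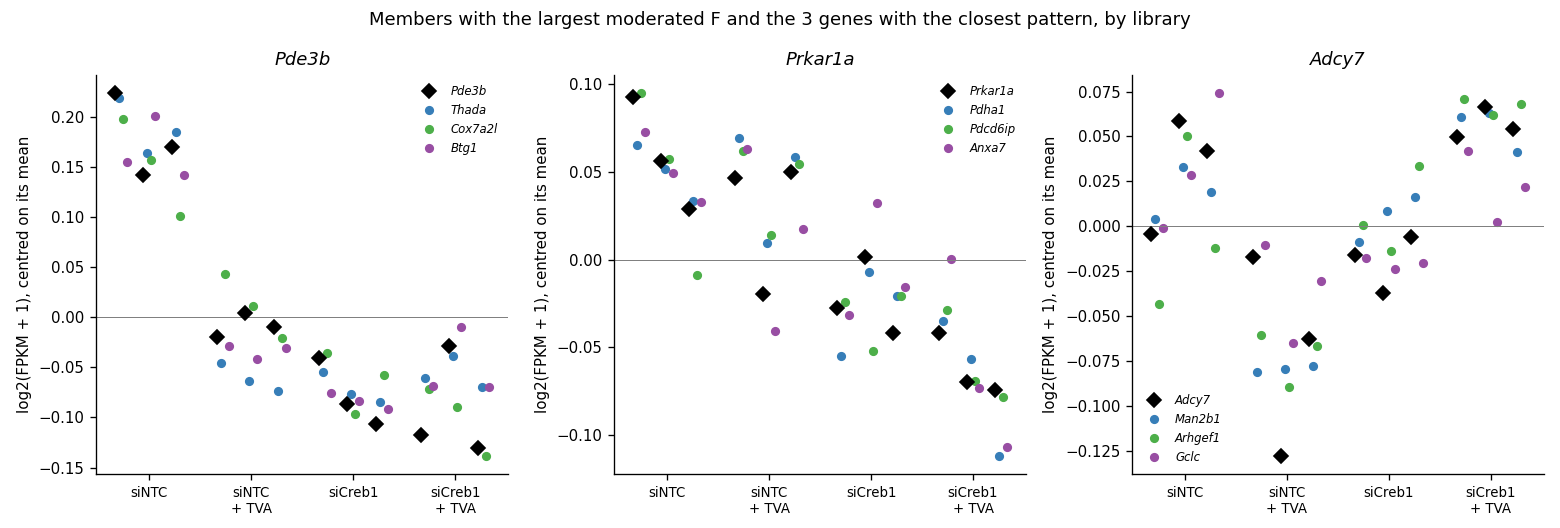
Log2(FPKM + 1) in each of the 12 libraries, centred on the gene's mean, for Pde3b, Prkar1a and Adcy7 (black diamonds) and for the 3 genes closest to each in pattern (coloured circles). The siNTC libraries of the Pde3b panel lie above 0.09 for all 4 genes, and the siNTC plus TVA libraries of the Adcy7 panel lie below 0.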

How the data were processed

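RNA from 12 libraries of CD8+ T cells (4 groups of 3) was sequenced by the authors, who deposited FPKM per gene for each library on builds GRCm38 and mm10 as named in the submitters' processing notes. The aligner, counter and use of strand are not given in the sources used here. Values were whole multiples of 1 read for at least 99.995% of entries (tolerance 0.01 reads), which gave each library's reads. limma 3.58.1 in R 4.3.3 (lmFit, contrasts.fit, eBayes with a trend) was fitted without a replicate block to log2(FPKM + 1) of the 11550 genes with a mean of at least 1 FPKM, with 1 coefficient per group over all 12 libraries and Benjamini-Hochberg adjustment. It was tested on simulated data, in which the changed genes differed by more than any member did in this fit. That test therefore does not cover differences of the size reported here. Other pathway genes were named if called in at least 1 comparison, receptors for free fatty acids whatever their values, and marker genes by their lists, as counts, sums or ranges, with 1 listed gene not reported here. Members and lists were chosen with earlier results of these data known. The fit was repeated with a pseudocount of 0.1, with the 29700 genes above 0, a minimum of 5 FPKM, quantile normalization, TPM, a replicate block, no trend, limma-voom on recovered reads, only the libraries compared, and leaving out each library.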

Additional observations from a re-analysis of the deposited data

Results flagged for a closer look

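Adcy7 was the member whose siNTC plus TVA libraries all lay below siNTC and whose siCreb1 plus TVA libraries all lay above siCreb1. Neither TVA difference was called (limma adjusted p = 0.0599 in siNTC cells and 0.418 in siCreb1 cells). The interaction, which tests whether the TVA effect differed between the siRNAs, was 0.18 on the log2 scale (SE 0.040, unadjusted p = 0.00117, limma adjusted p = 0.0504). It passed the threshold in 5 of 20 alternatives, with adjusted p-values of 0.0038 to 0.243 over all 20.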

How the results depend on the processing

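Of 1030 values of the 10 members under alternatives, 967 kept their direction and their side of the threshold, 25 were no longer past it, 15 were newly past it and 23, none of them called, changed sign. The 2 calls of Pde3b and the fall of Creb1 (-2.92 to -2.20 on the log2 scale) held under every alternative, and the cause of the changes below was not tested. With TVA in siNTC cells, 3 members were called but 1, Pde3b, with TPM, with a replicate block and with only the libraries compared, 2 over all genes above 0 (Pde3b and Pde7a) and 4 after quantile normalization, with Adcy7. Adcy7 also took the place of Pde4d at a minimum of 5 FPKM and of Pde7a with limma-voom. With siCreb1 without TVA, 2 were called but 1, Pde3b, over all genes above 0. With siCreb1 with TVA, 1 was called but 2 at a minimum of 5 FPKM and 0 with only the libraries compared. For the interaction none was called, but Adcy7 (1 member) at a minimum of 5 FPKM and after quantile normalization, and Adcy7 and Pde3b (2 members) with limma-voom on recovered reads. Leaving out 1 library gave 1 to 4 called members for TVA in siNTC cells, 0 for TVA in siCreb1 cells, 1 to 3 for siCreb1 without TVA, 0 to 2 for siCreb1 with TVA and 0 to 1 for the interaction. Pde4b and Pde4d lie under a mean of 5 FPKM and have no value at that minimum, and the interaction has none with only the libraries compared.

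Sign changes under other settings were 0.015 for Prkacb with siCreb1 with TVA, 0.022 for Prkar2a and 0.0014 for Pde7a with siCreb1 without TVA (all with TPM), 0.0078 for the Prkar1a interaction and -0.0095 for Pde4d with siCreb1 with TVA (both after quantile normalization), and 0.0020 for Pde7a with TVA in siCreb1 cells (limma-voom). Leaving out 1 library gave -0.24 to 0.0056 for Gnas with siCreb1 with TVA, -0.10 to 0.059 for the Prkaca interaction, -0.029 to 0.0093 for the Prkar1a interaction, -0.011 to 0.059 for Prkar2a with TVA in siCreb1 cells and -0.048 to 0.015 for it with siCreb1 without TVA. It gave -0.046 to 0.0045 for Pde3b and -0.020 to 0.00076 for Pde7a with TVA in siCreb1 cells, -0.026 to 0.040 for Pde4d with siCreb1 with TVA, and -0.14 to 0.045 for the Creb1 interaction. The PKA catalytic to regulatory ratio was 0.765 in siNTC, 0.741 in siNTC plus TVA, 0.766 in siCreb1 and 0.769 in siCreb1 plus TVA on reads that are not per length.

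Same-numbered libraries did not deviate together (correlations of -0.059 to 0.060 over genes), so the replicate block, with which Pde4d and Pde7a were no longer called, pairs no known sources. Over all genes the calls ranged from 368 to 1015 (852 in the fit reported) for TVA in siNTC cells, 30 to 155 (62) for TVA in siCreb1 cells, 817 to 1974 (1586) and 599 to 1536 (1172) for siCreb1 without and with TVA, and 152 to 446 (259) for the interaction. With TPM 72.3%, 75.4% and 83.8% of the calls were higher for TVA in siNTC cells and for siCreb1 without and with TVA, against 60.9%, 47.5% and 45.7% in the fit reported. The shares were also above that fit after quantile normalization (61.7%, 54.0% and 64.0%) and with limma-voom on recovered reads (65.0%, 59.9% and 59.6%). At a minimum of 5 FPKM they were below it (52.8%, 42.5% and 41.0%).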
